A study of Rattus norvegicus with 12 samples.

Results

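The genes described here are 35 genes of glycolysis and of the response to low oxygen, read from the 22850 features of a count table of primary rat atrial fibroblasts. They were listed by symbol, by a rule that names no measured value but with earlier results of these data known, and each of the 35 symbols matched 1 row. By role they comprise 17 glycolytic enzymes, 3 transporters of glucose and lactate, 2 PFKFB enzymes that set the level of an activator of phosphofructokinase, 4 pyruvate dehydrogenase kinases and 9 genes of the hypoxia pathway. The cells came from the atria of newborn Sprague-Dawley rats and were enriched by differential adhesion, which does not sort fibroblasts from other attached cells. All 12 libraries were from cells kept for 48 h with angiotensin II (AngII) at 1 µmol/L in medium with 2% fetal bovine serum, in 3 groups of 4. The AngII group had no peptide. The AngII+HNG group was given HNG, an analogue of the mitochondria-derived peptide humanin, at 10 µmol/L from 1 h before AngII. The AngII+MOTS-c group was given MOTS-c, another peptide encoded in mitochondrial DNA, at 5 µmol/L from 1 h before AngII. The doses of the peptides therefore differed. Cells without AngII were not analysed here, and the values show how the peptide groups stood against AngII alone, not what AngII itself did to these genes. The oxygen level of the cultures was not a variable of the design.

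Glycolysis converts glucose to pyruvate in the cytosol and yields ATP without oxygen. Glucose enters through transporters such as GLUT1 (Slc2a1), hexokinases trap it, phosphofructokinase commits it, and lactate dehydrogenase turns pyruvate into lactate, which leaves through monocarboxylate transporters. Pyruvate dehydrogenase kinases restrain the entry of pyruvate into mitochondria. The transcription factor HIF, whose α subunit is encoded by Hif1a, raises many of these genes when oxygen falls. In normal oxygen the prolyl hydroxylases encoded by the Egln genes mark the α subunit for destruction, and Egln3 is itself a HIF target. In fibroblasts the pathway also touches the matrix, since P4ha1 and P4ha2 encode the catalytic subunits that hydroxylate proline in collagen.

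The libraries held 27960586 to 38322354 counts, and the 35 genes together took 0.647% to 0.718% of them. At this depth 3 counts correspond to 0.0783 to 0.107 CPM (counts divided by library size), without scaling. This floor reflects counting error alone. The CPM of genes are taken after edgeR's TMM scaling of library sizes. The lowest count of any of the 35 genes in a library was 42, for Pdk4, and 35 of 35 genes passed the filter on low counts in each comparison. Col1a1 stood at 3792 to 4429 FPKM (fragments scaled to gene length and library size) and Pdgfra at 29.8 to 37.7 FPKM, so the fibroblast markers were present. Muscle cell genes were present as well, with Tnnt2 at 666 to 921 FPKM and Myh6 at 263 to 409 FPKM, and the macrophage gene Csf1r stood at 12.1 to 19.3 FPKM. The library names of replicates 2 and 3 share a number in each group. The replicates are described as biological and as independent samples, without their cell preparations being named, and p-values measure the spread between these libraries.

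Levels per length spanned from about 1 FPKM for Pdk4 to 525 FPKM for Gapdh. Gapdh, the enzyme that reduces NAD in the pathway, was highest with 525 ± 20.6 FPKM (SD, n = 4) in the AngII group. Eno1, the main enolase, followed with 437 ± 12.3 FPKM and the aldolase Aldoa with 425 ± 9.45 FPKM, 2 levels whose spreads touched. The pyruvate kinase gene Pkm stood at 325 ± 25.6 FPKM and the lactate dehydrogenase A gene Ldha at 305 ± 7.25 FPKM. P4ha1, the collagen prolyl hydroxylase subunit, was sixth in this order with 285 ± 4.602 FPKM, between Ldha and the mutase Pgam1 at 231 ± 12.6 FPKM. Pgk1, an ATP-forming kinase of the pathway, had 194 ± 8.14 FPKM. The isomerases Tpi1 and Gpi stood at 111 ± 7.07 and 107 ± 3.81 FPKM and could not be ordered beyond their spread. The 9 enzymes from Gapdh to Gpi were thus all above 100 FPKM.

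The enzymes that control the flux into the pathway were much less abundant. Among hexokinases, Hk1 stood at 45.5 ± 1.22 FPKM and Hk2 at 7.46 ± 0.178 FPKM in the AngII group. Among phosphofructokinases, the platelet form Pfkp led with 54.0 ± 1.22 FPKM, ahead of the muscle form Pfkm with 18.97 ± 0.928 and the liver form Pfkl with 16.7 ± 0.372 FPKM. Ldhb, the heart form of lactate dehydrogenase, had 74.8 ± 3.98 FPKM, Eno2 15.7 ± 1.15 FPKM and Aldoc 4.32 ± 0.47 FPKM. For each of these enzymes one paralog therefore carried most of the signal. Of the transporters, Slc2a1 had 22.8 ± 0.689 FPKM, the lactate transporter MCT1 gene Slc16a1 18.8 ± 0.589 FPKM and the MCT4 gene Slc16a3 9.74 ± 0.47 FPKM. The bifunctional enzymes Pfkfb3 and Pfkfb4 had 9.94 ± 0.792 and 2.29 ± 0.128 FPKM. Of the pyruvate dehydrogenase kinases, Pdk2 with 8.83 ± 0.59 and Pdk1 with 7.83 ± 0.883 FPKM stood above Pdk3 with 1.71 ± 0.116 and Pdk4 with 1.09 ± 0.0889 FPKM.

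Among the hypoxia genes, Vegfa, which encodes an endothelial growth factor, had 67.7 ± 2.85 FPKM in the AngII group and P4ha2 had 54.97 ± 2.33 FPKM. The vasodilator peptide gene Adm with 38.2 ± 1.42 FPKM and Hif1a with 37.9 ± 1.93 FPKM could not be ordered beyond their spread. Bnip3, a mitophagy receptor, stood at 22.98 ± 1.48 FPKM. The hydroxylases Egln1 and Egln3 had 9.95 ± 0.67 and 5.67 ± 0.344 FPKM, and Ndrg1, a stress- and hypoxia-induced gene, had 6.65 ± 0.154 FPKM.

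**Figure D1:**
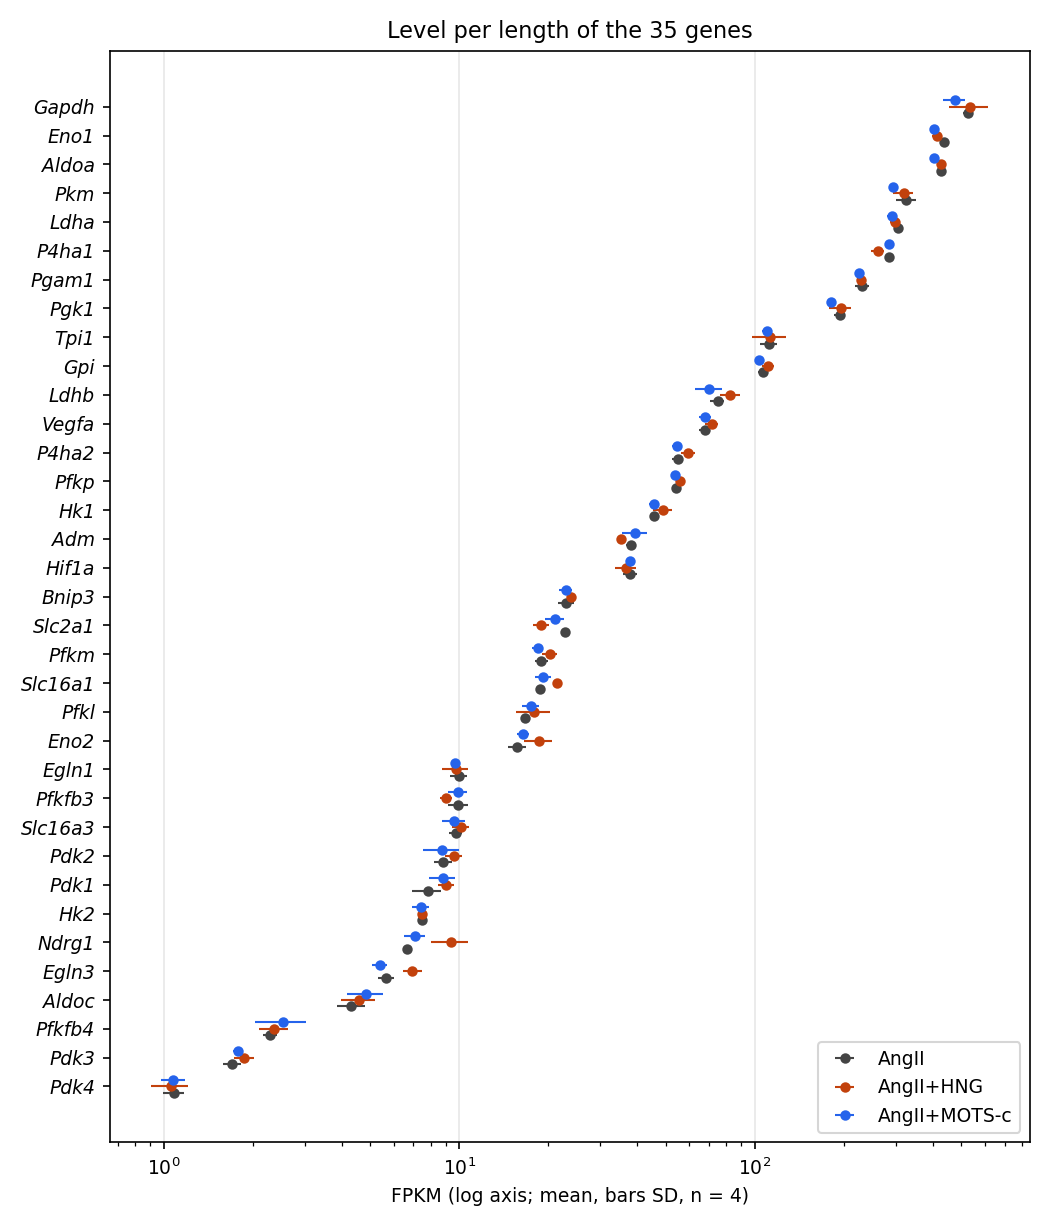
Mean FPKM of each of the 35 genes on a log axis, with SD bars over 4 libraries, for AngII (grey), AngII+HNG (orange) and AngII+MOTS-c (blue). The genes run from about 1 FPKM for Pdk4 to 525 FPKM for Gapdh in the AngII group, and the 3 groups lie close together for most genes, with Ndrg1 among those set apart by AngII+HNG.

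A limit on the abundant enzymes comes from their pseudogenes. RefSeq names 206 pseudogenes of 11 of the 35 genes, among them 79 of Gapdh and 30 each of Eno1 and Ldha, and 0 of these pseudogenes is a row of the count table. How reads that match several places were treated is not given in the sources used here, so the values of these 11 genes are uncertain in that respect.

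The first comparison asked how HNG added to AngII differed from AngII alone. HNG was accompanied by a change in 5 of the 35 genes (14.3%), at an adjusted p below 0.05 in edgeR's quasi-likelihood test, against 5.98% of all 14524 genes tested. Ndrg1, Egln3 and the lactate transporter gene Slc16a1 rose, and the glucose transporter gene Slc2a1 and the collagen hydroxylase gene P4ha1 fell. The background was 3.4% of genes higher and 2.58% lower. Of the 17 glycolytic enzymes, 0 passed the threshold with edgeR, DESeq2 or limma. An unadjusted p below 0.05 was found for 3 with edgeR, where 20.3% of all genes tested had such a p, for 3 with DESeq2 and for 2 with limma.

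Slc2a1 encodes GLUT1, the main entry route for glucose in many cultured cells. Its values were 63.7, 61.6, 59.1 and 62.4 CPM in the 4 AngII libraries, 54.5, 51.5, 46.5 and 49.8 CPM in the AngII+HNG libraries and 51.9, 61.8, 54.5 and 58.8 CPM in the AngII+MOTS-c libraries. Every AngII+HNG library was below every AngII library, whereas the AngII+MOTS-c libraries overlapped both groups. The fitted log2 fold change of AngII+HNG against AngII was -0.28 ± 0.0519 (SE), a fold of 0.822 (edgeR, adjusted p = 0.00694, lower in 4 of 4 libraries).

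Ndrg1 had the largest change of the 35 genes. Its values were 19.96, 20.5, 19.6 and 20.6 CPM with AngII, 23.5, 26.5, 28.9 and 32.9 CPM with AngII+HNG and 21.5, 20.2, 23.6 and 19.9 CPM with AngII+MOTS-c. The AngII libraries lay within about 1 CPM of each other, and the AngII+HNG libraries were all above them but spread widely. The log2 fold change of AngII+HNG against AngII was 0.48 ± 0.0859, a fold of 1.39 (edgeR, adjusted p = 0.00617).

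Egln3 encodes a prolyl hydroxylase that acts on the HIF α subunit. It was measured at 17.1, 15.4, 17.04 and 17.9 CPM with AngII, 18.99, 21.98, 19.1 and 21.1 CPM with AngII+HNG and 15.9, 16.5, 14.5 and 16.7 CPM with AngII+MOTS-c. The AngII+HNG libraries were the highest of the 12. The log2 fold change against AngII was 0.27 ± 0.07 (edgeR, adjusted p = 0.0369).

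Slc16a1, which encodes the lactate and pyruvate carrier MCT1, was measured at 62.7, 57.7, 61.1 and 62.4 CPM with AngII, 67.5, 70.4, 65.3 and 69.2 CPM with AngII+HNG and 63.03, 60.4, 54.9 and 65.3 CPM with AngII+MOTS-c. The AngII+HNG libraries lay above all AngII libraries, by a log2 fold change of 0.16 ± 0.0437 (edgeR, adjusted p = 0.045). P4ha1 was measured at 709, 701, 706 and 688 CPM with AngII, 611, 644, 666 and 597 CPM with AngII+HNG and 727, 690.2, 693 and 672 CPM with AngII+MOTS-c. Its AngII+HNG libraries lay below the other 8, by a log2 fold change against AngII of -0.15 ± 0.0405 (edgeR, adjusted p = 0.0468). The changes of these genes were small, with folds of 1.12 and 0.901, and their calls were close to the threshold. Both calls were lost on leaving out any 1 of the 8 libraries except AngII+HNG replicate 3, with adjusted p = 0.0658 to 0.151 for Slc16a1 and 0.0714 to 0.142 for P4ha1 with edgeR. The call of Egln3 was lost without AngII+HNG replicate 2 (0.115) or 4 (0.0996), or without AngII replicate 1 (0.0942), 2 (0.119) or 3 (0.0902), while those of Slc2a1 and Ndrg1 were kept without each library. With the replicates 2 and 3 of each group, which share a library name number, summed to 1, the calls of Slc16a1 (0.0854), P4ha1 (0.0561) and Egln3 (0.0689) were lost, and limma on log2(FPKM + 1) called neither P4ha1 (0.132) nor Egln3 (0.053).

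**Figure D2:**
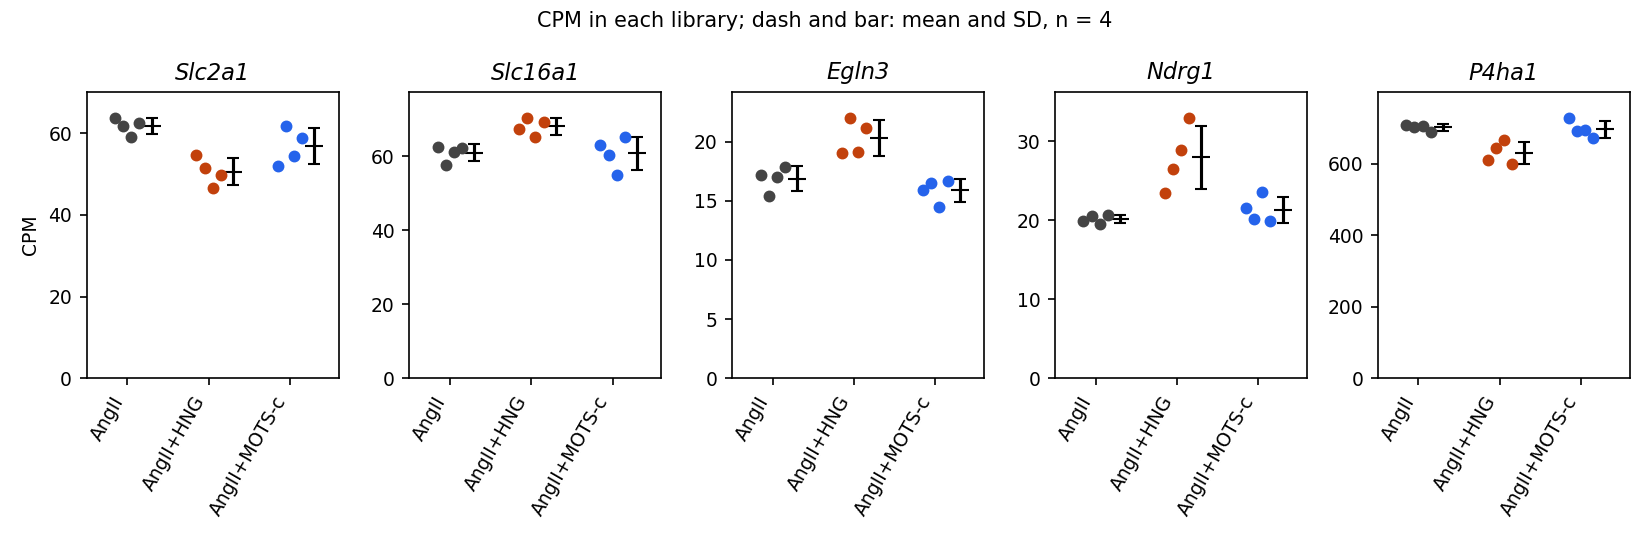
CPM of Slc2a1, Slc16a1, Egln3, Ndrg1 and P4ha1 in each library, 1 point per library and 4 per group, with the mean and SD beside the points. The AngII+HNG points of each gene lie wholly above or wholly below the AngII points, and those of Ndrg1 spread from 23.5 to 32.9 CPM.

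Promoter windows of the called genes are printed because the core of the hypoxia response element, the site that HIF binds, is a short word that can be read from them. RefSeq windows of assembly GRCr8 that run from 250 bases before the start of transcription to 50 bases after it were found for 33 of the 35 genes, in 38 windows, and Ndrg1 and Pgk1 had none. The words ACGTG and GCGTG were searched on both strands, where they read CACGT and CACGC on the printed strand, and matches are in capitals. The word CACGTG holds ACGTG on both strands and counts as 2 matches. The windows of the 4 called genes, read 5′ to 3′ on the strand of the gene, are the following.
Slc2a1, chr5:138002272-138002571, plus strand: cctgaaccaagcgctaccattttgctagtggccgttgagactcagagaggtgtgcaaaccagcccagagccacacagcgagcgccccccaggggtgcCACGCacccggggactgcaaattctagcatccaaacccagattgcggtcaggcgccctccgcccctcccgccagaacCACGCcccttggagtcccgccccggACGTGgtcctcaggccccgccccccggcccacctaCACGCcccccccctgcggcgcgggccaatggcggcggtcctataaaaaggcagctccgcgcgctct
Slc16a1, chr2:194812410-194812709, plus strand: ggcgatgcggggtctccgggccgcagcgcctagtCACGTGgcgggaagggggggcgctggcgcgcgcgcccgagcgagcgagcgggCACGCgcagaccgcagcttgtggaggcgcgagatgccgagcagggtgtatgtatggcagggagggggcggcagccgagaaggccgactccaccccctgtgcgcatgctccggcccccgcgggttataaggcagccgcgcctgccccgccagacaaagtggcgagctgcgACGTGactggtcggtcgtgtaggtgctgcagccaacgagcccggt
P4ha1, chr20:27844796-27845095, plus strand: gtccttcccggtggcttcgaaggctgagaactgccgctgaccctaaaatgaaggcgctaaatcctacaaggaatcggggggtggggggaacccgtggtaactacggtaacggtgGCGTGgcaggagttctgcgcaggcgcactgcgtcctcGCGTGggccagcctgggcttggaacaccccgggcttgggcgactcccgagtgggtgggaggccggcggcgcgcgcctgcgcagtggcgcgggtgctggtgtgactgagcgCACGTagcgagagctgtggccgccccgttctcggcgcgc
Egln3, chr6:77410966-77411265, minus strand: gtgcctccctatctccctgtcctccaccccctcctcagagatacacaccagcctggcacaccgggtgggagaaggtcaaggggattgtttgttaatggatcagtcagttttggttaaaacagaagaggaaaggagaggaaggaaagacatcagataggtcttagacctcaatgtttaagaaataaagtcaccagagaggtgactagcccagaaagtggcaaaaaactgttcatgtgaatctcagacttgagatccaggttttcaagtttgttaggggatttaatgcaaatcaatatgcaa
The window of Slc2a1 held 4 matches, of which 1 was ACGTG, that of Slc16a1 held 4 with 3 ACGTG, and that of P4ha1 held 3 with 1 ACGTG. The window of Egln3 held 0, which says only that these letters are not in this window. Matches were therefore present in the window of Slc16a1, which rose, and in those of Slc2a1 and P4ha1, which fell. Over the set, 25 of 38 windows (65.8%) held at least 1 match, against 41.6% of 33469 windows of all genes, and 55.3% held ACGTG, against 19.3%. The windows of the set were also richer in G and C, with a median of 63.3% against 51.7%, and both words contain a CG pair. A match describes the letters and is not a bound site.

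The other genes with an unadjusted p below 0.05 against AngII did not pass the adjustment. Eno2 was measured at 36.1, 37.9, 33.3 and 39.9 CPM with AngII and 37.1, 41.6, 47.6 and 44.6 CPM with AngII+HNG, a log2 fold change of 0.22 ± 0.0769 (edgeR, adjusted p = 0.12). Eno1 was measured at 795, 826, 793 and 776 CPM with AngII and 739, 783, 739 and 715 CPM with AngII+HNG, a log2 fold change of -0.096 ± 0.0383 (edgeR, adjusted p = 0.179). The enolase genes thus had fitted values on opposite sides of 0, with overlapping groups. Ldhb was measured at 96.8, 107, 106 and 110.2 CPM with AngII and 104, 113, 124 and 115 CPM with AngII+HNG (0.13 on the log2 scale, adjusted p = 0.233). Pdk1, a kinase that HIF induces, was measured at 12.9, 13.4, 11.1 and 14.5 CPM with AngII and 14.1, 14.1, 15.6 and 15.5 CPM with AngII+HNG (0.19, adjusted p = 0.224). Both overlapped between the groups. Pfkfb3 was measured at 45.9, 45.1, 45.6 and 53.4 CPM with AngII and 44.1, 39.9, 43.6 and 42.6 CPM with AngII+HNG (-0.16, adjusted p = 0.175). Adm was measured at 55.96, 55.6, 58.2 and 53.6 CPM with AngII and 52.4, 52.2, 49.8 and 49.1 CPM with AngII+HNG (-0.13, adjusted p = 0.124). In these last genes all AngII+HNG libraries were below all AngII libraries, without a call. Groups that did not overlap were found for 7 of the 35 genes (20%), against 13.7% of all genes tested. An unadjusted p below 0.05 was found for 11 of 35 (31.4%), against 20.3%.

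Over the 35 genes the median log2 fold change was 0.028, against 0.0043 over all genes tested, and 16 of the 35 (45.7%) were fitted below 0, against 48.7% of all genes. The median of the 17 enzymes was 0.025, and their 95% intervals lay between -0.19 and 0.39 on the log2 scale. With a smooth curve of fold change on gene length subtracted, the median of the enzymes was -0.016 and that of the 35 genes 0.0025. The set therefore held genes on both sides rather than a common shift. Of the 4 pyruvate dehydrogenase kinases 3 were fitted above 0, of the 9 hypoxia genes 5, and of the PFKFB enzymes neither. Hif1a itself was at 158, 152, 159 and 172 CPM with AngII and 154, 151, 138 and 168 CPM with AngII+HNG, with a log2 fold change of -0.066 and a 95% interval of -0.19 to 0.057. Vegfa was at 238, 241, 221 and 229 CPM with AngII and 248, 253, 237 and 225 CPM with AngII+HNG, with an interval of -0.041 to 0.15. Neither interval excluded 0.

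Cell type markers moved in the same comparison. The summed CPM of 12 macrophage markers ranged from 239 to 285 with AngII, 323 to 427 with AngII+HNG and 235 to 283 with AngII+MOTS-c, and 4 of the 11 tested rose with HNG and 1 fell. The sum of 10 endothelial markers ranged from 80.2 to 90.5, 103 to 113 and 84.6 to 90.2 CPM in the same order, with 4 of 10 higher with HNG. The sum of 10 smooth muscle and pericyte markers ranged from 3691 to 3867, 2893 to 3177 and 3399 to 3690 CPM, with 5 of 10 lower with HNG. The sums of these 3 lists thus separated AngII+HNG from AngII without overlap. Cd163 was at 0 in at least 1 library, and the hemoglobin genes Hba-a1 and Hbb were at 0 in all 12. In these bulk libraries fewer cells of a type and less RNA per cell cannot be told apart, and the part of these markers in the changes of Slc2a1, P4ha1, Slc16a1, Egln3 and Ndrg1 was not tested. The sums of 10 fibroblast markers overlapped, with 64945 to 69329 CPM for AngII, 62969 to 70920 CPM for AngII+HNG and 65021 to 68891 CPM for AngII+MOTS-c. The 10 cardiomyocyte markers also overlapped, with 7179 to 8064, 7300 to 8546 and 6501 to 8475 CPM. Of these, 2 of 10 fibroblast markers and 1 of 10 cardiomyocyte markers were higher with HNG.

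**Figure D3:**
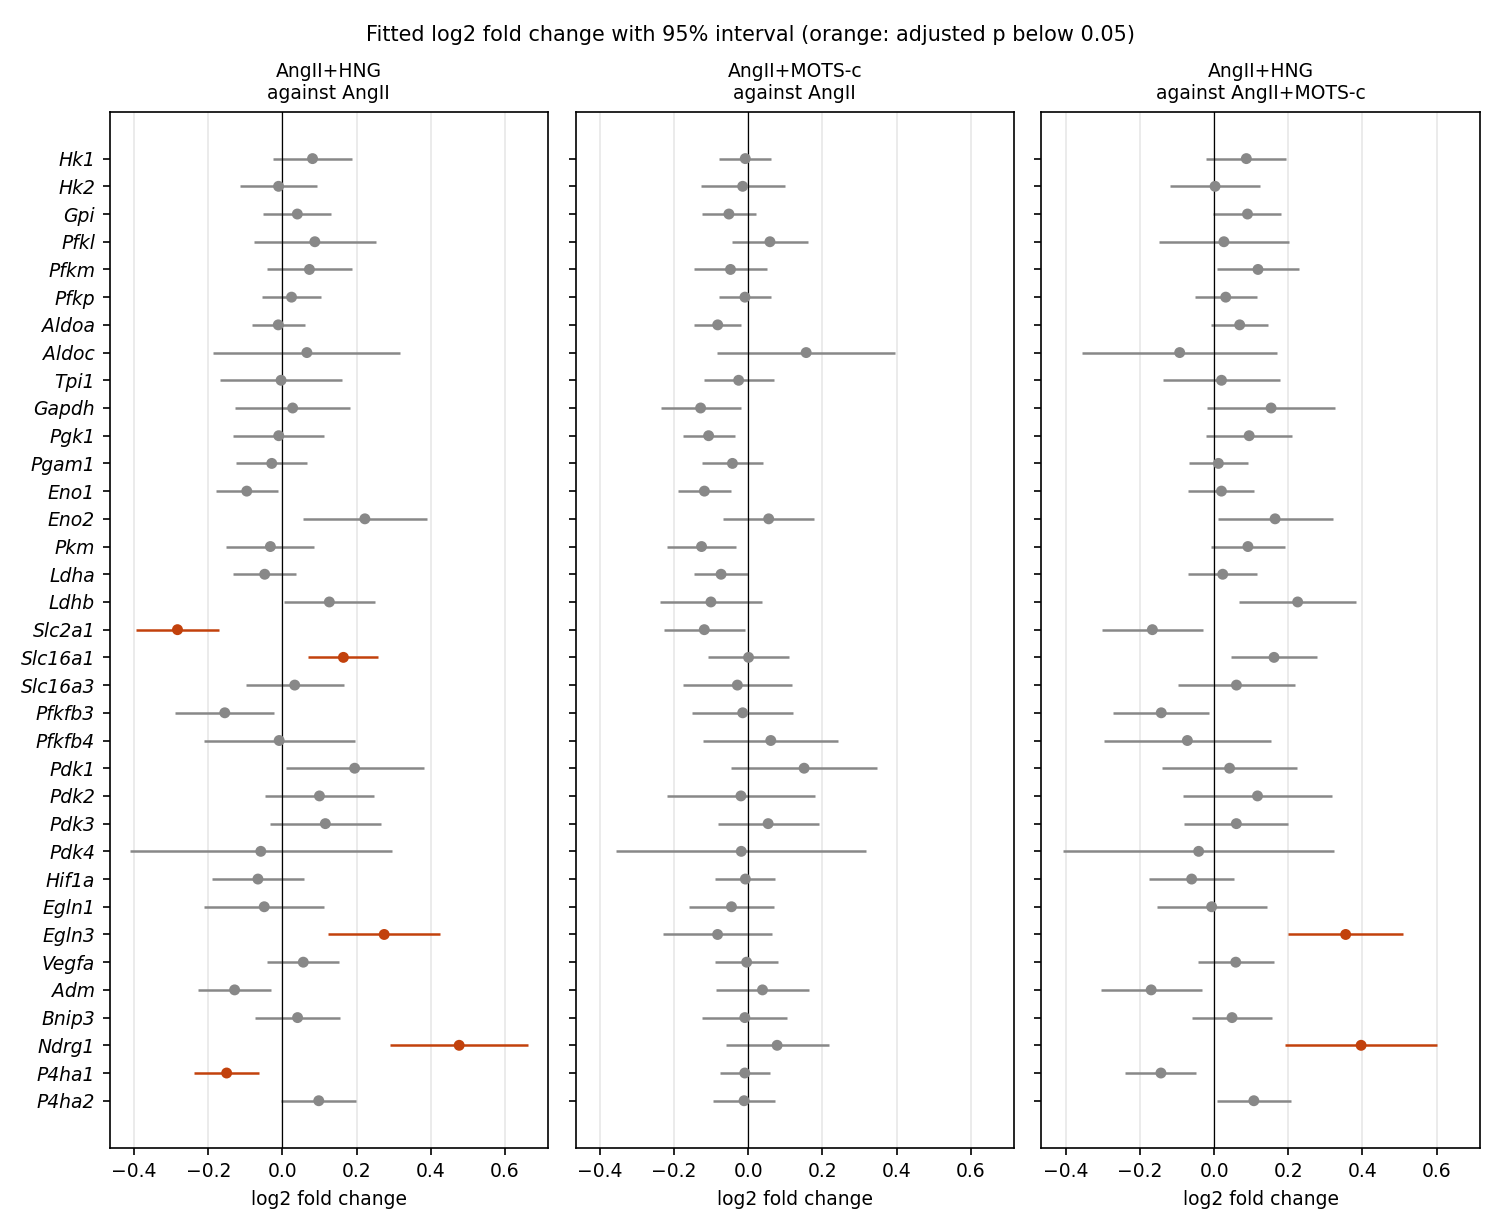
Fitted log2 fold change of each of the 35 genes with its 95% interval in the 3 comparisons, with genes at an adjusted p below 0.05 in orange. The panel for AngII+HNG against AngII has 5 orange genes, the panel for AngII+MOTS-c against AngII has 0, with most points left of 0, and the panel for AngII+HNG against AngII+MOTS-c has Egln3 and Ndrg1.

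The second comparison asked the same of MOTS-c. None of the 35 genes passed the adjusted threshold with edgeR, DESeq2 or limma, against 0.0069% of all 14488 genes tested with edgeR, which is 1 gene. An unadjusted p below 0.05 was found for 7 of the 35 genes with edgeR (20%, against 5.05% of all genes), 7 with DESeq2 and 5 with limma on FPKM. With edgeR these were Gapdh, Pkm, Eno1, Slc2a1, Pgk1, Aldoa and Ldha, each with an adjusted p of 0.924, and all 7 were fitted lower with MOTS-c. An unadjusted p below 0.05 in that direction was thus found for 20% of the 35 genes, against 2.61% of all genes tested. Of these 7 genes 6 are enzymes, and they belong to the 9 enzymes above 100 FPKM. Each of the 6 enzymes also has named pseudogenes, so the uncertainty given above applies to its values. Leaving out AngII replicate 1, AngII replicate 2 or AngII+MOTS-c replicate 3 left 4 genes with such a p in place of 7.

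Aldoa was measured at 645, 659, 631 and 644 CPM with AngII and 626, 594, 597 and 614 CPM with AngII+MOTS-c, a log2 fold change of -0.083 ± 0.0296 (edgeR, adjusted p = 0.924). Pgk1 was measured at 337, 354, 342 and 322 CPM with AngII and 319.6, 311, 311 and 315 CPM with AngII+MOTS-c, a log2 fold change of -0.11 ± 0.0327 (edgeR, adjusted p = 0.924). In both genes every AngII+MOTS-c library was below every AngII library. Eno1 was measured at 753, 709.9, 754 and 718 CPM with AngII+MOTS-c, against the AngII values given above, a log2 fold change of -0.12 ± 0.0329 (edgeR, adjusted p = 0.924). Pkm was measured at 755, 814, 872 and 766 CPM with AngII and 741, 744, 738 and 711 CPM with AngII+MOTS-c, a log2 fold change of -0.13 ± 0.0426 (edgeR, adjusted p = 0.924). These groups did not overlap either, so that 4 of the 35 genes (11.4%) had all AngII+MOTS-c libraries below all AngII libraries, against 1.73% of all genes. Gapdh was measured at 714, 738, 694 and 678 CPM with AngII and 656, 706, 579 and 639.9 CPM with AngII+MOTS-c, a log2 fold change of -0.13 ± 0.0501 (edgeR, adjusted p = 0.924). Ldha was measured at 518, 525, 496 and 518 CPM with AngII and 493, 507, 461 and 491 CPM with AngII+MOTS-c, a log2 fold change of -0.073 ± 0.0339 (edgeR, adjusted p = 0.924). For Gapdh and Ldha the groups overlapped, and AngII+MOTS-c replicate 3 held the lowest value. The log2 fold change of Slc2a1 was -0.12 ± 0.0509 (edgeR, adjusted p = 0.924), with AngII+MOTS-c replicate 2 inside the range of the AngII libraries.

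Of the 35 genes, 26 (74.3%) were fitted below 0 with MOTS-c, against 50.4% of all genes, and of the 17 enzymes 14 were. The genes of a set share cells and libraries, so these counts are a description. The median of the enzymes was -0.048 and that of the 35 genes -0.015, against -0.00076 over all genes, and the 95% intervals of the 35 genes lay between -0.36 and 0.40. Together the enzymes took 0.511% to 0.538% of the counts with AngII and 0.484% to 0.501% with AngII+MOTS-c, which did not overlap, and 0.502% to 0.556% with AngII+HNG. The enzymes fitted above 0 with MOTS-c were Aldoc, Pfkl and Eno2, none of them the leading paralog of its step. Aldoc was at 6.15, 7.05, 7.85 and 7.795 CPM with AngII and 8.08, 7.52, 9.56 and 6.98 CPM with AngII+MOTS-c, with an interval of -0.084 to 0.40 on the log2 scale. Of the hypoxia genes, Hif1a was at 156, 160.1, 163 and 158 CPM with AngII+MOTS-c, an interval of -0.089 to 0.073 against AngII. That interval spanned 0. The log2 fold changes of the hypoxia genes lay between -0.083 for Egln3 and 0.078 for Ndrg1.

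Gene length moved with this comparison. Across all genes tested, longer genes were fitted higher with MOTS-c (Spearman's rho of 0.183 across 14488 genes, which are not independent replicates), and the 17 enzymes have a median length of 1889 bases against 2863 bases over all genes. With the smooth curve of fold change on length subtracted, the median of the enzymes was -0.045 in place of -0.048. None of the cell type markers tested had an adjusted p below 0.05 in this comparison, whereas the sums of smooth muscle and pericyte markers given above were 3691 to 3867 CPM with AngII and 3399 to 3690 CPM with AngII+MOTS-c. Their part in the enzyme values was not tested.

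**Figure D4:**
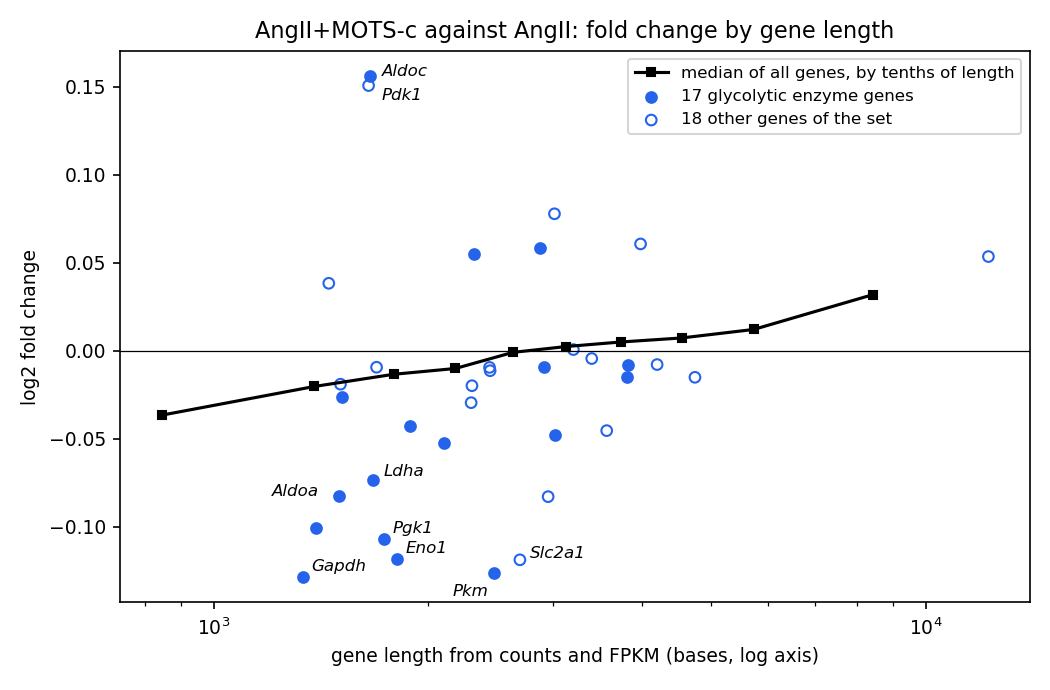
Log2 fold change of AngII+MOTS-c against AngII by gene length in bases (log axis) for the 17 enzymes (filled) and the other 18 genes of the set (open), with the median of all genes in bins of length as a black line. Gapdh, Eno1, Pgk1, Pkm, Aldoa, Ldha and Slc2a1 lie below the line, and Aldoc and Pdk1 above 0.15 lie over it.

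Libraries of one group differed in the enzymes as a whole. Relative to the AngII mean, the median deviation of the 17 enzymes was 0.13 on the log2 scale in AngII+HNG replicate 3, against 0.029 in replicate 2, -0.039 in replicate 1 and -0.053 in replicate 4. That library held the highest value of its group for 11 of the 17 enzymes and the lowest for 0, while replicates 1 and 4 held the lowest for 8 enzymes each. Gapdh was at 686, 727, 834 and 622 CPM in the AngII+HNG libraries, a coefficient of variation of 12.4%, against 3.68% with AngII. Tpi1 was at 160.0, 160.4, 201 and 155 CPM, with replicate 3 apart from the others. Without AngII+HNG replicate 3 the median of the 35 genes against AngII was -0.0033 in place of 0.028. In the AngII+MOTS-c libraries the deviations of the enzymes were closer together, from -0.034 to -0.080, and below 0 in 4 of 4 libraries.

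**Figure D5:**
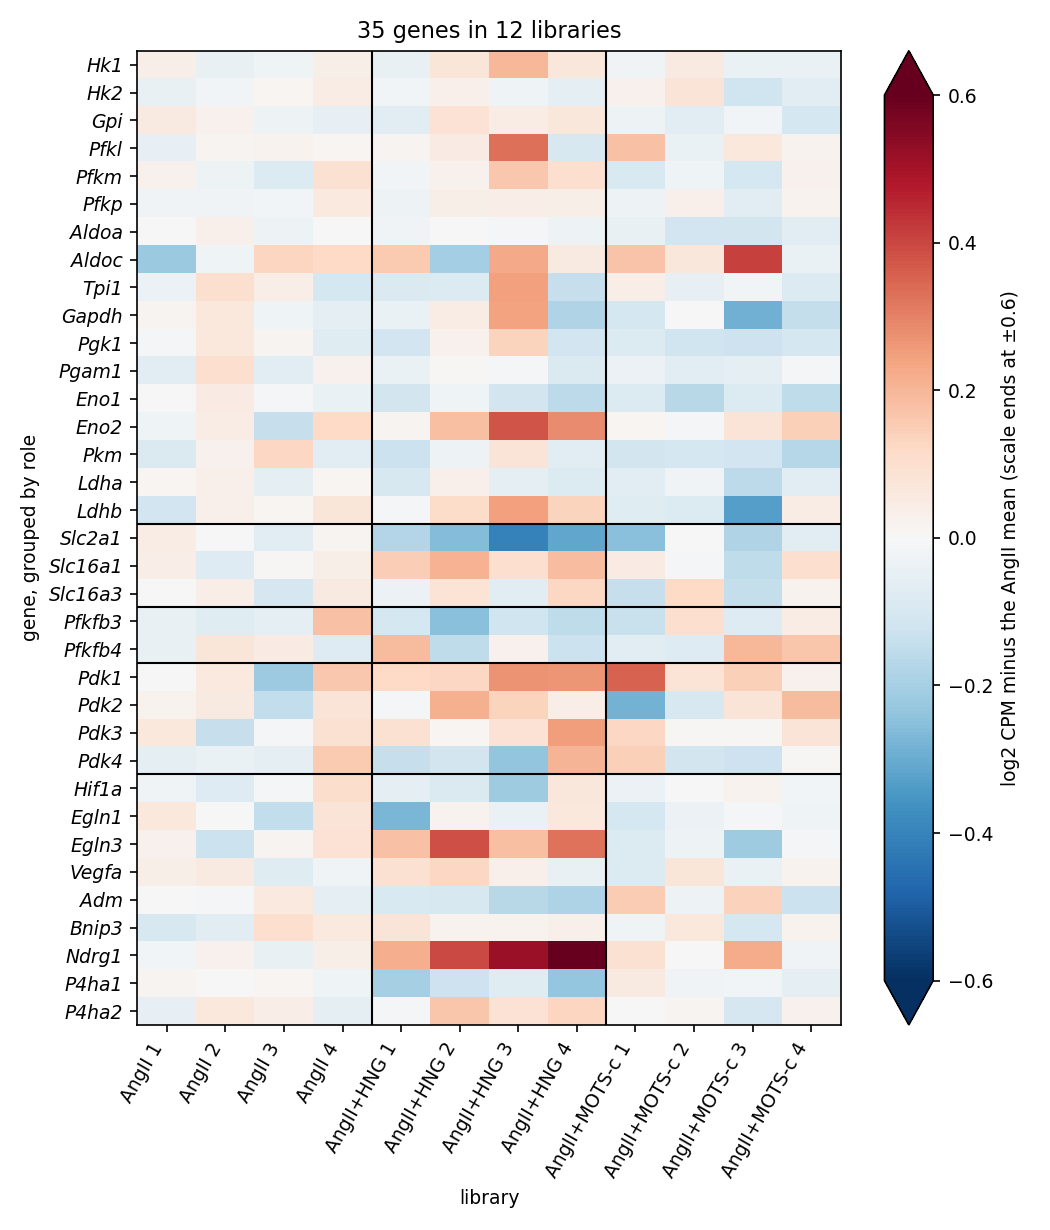
Log2 CPM of each of the 35 genes in each of the 12 libraries minus the mean of the AngII libraries, in red where higher and blue where lower, with genes grouped by role. Ndrg1, Egln3 and Slc16a1 are red and Slc2a1 and P4ha1 blue in all AngII+HNG libraries, AngII+HNG replicate 3 is red for many enzymes, and the rows of Aldoa, Pgk1, Eno1 and Pkm are blue across the AngII+MOTS-c libraries.

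The third comparison set the peptides against each other, at their different doses. Of the 35 genes, 2 (5.71%) differed at an adjusted p below 0.05, against 4.41% of all 14448 genes tested, and both were higher with HNG, against 2.64%. Egln3 was higher in AngII+HNG than in AngII+MOTS-c by 0.35 ± 0.0721 on the log2 scale (edgeR, adjusted p = 0.014), and its groups did not overlap. Ndrg1 was higher by 0.40 ± 0.0944 (edgeR, adjusted p = 0.0328), with AngII+MOTS-c replicate 3 at 23.6 CPM just above the lowest AngII+HNG library at 23.5 CPM. Without AngII+HNG replicate 2, neither gene passed (edgeR, adjusted p = 0.0565 for Egln3 and 0.0591 for Ndrg1). Egln3 was also lost without AngII+MOTS-c replicate 3 (0.0518), and Ndrg1 without AngII+HNG replicate 3 (0.0566) or 4 (0.0798) or AngII+MOTS-c replicate 1 (0.0853), 2 (0.108) or 4 (0.079). The call of Ndrg1 was also lost with the replicates 2 and 3 summed (0.0595) and with limma at a pseudocount of 1 (0.075) or 0.1 (0.0666). Cell type markers also differed here, with 3 of 11 macrophage and 2 of 10 endothelial markers higher with HNG and 3 of 10 smooth muscle and pericyte markers lower, and their part was not tested.

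The other genes called with HNG against AngII did not differ beyond the threshold between the peptides. The log2 difference of Slc2a1 was -0.17 with a 95% interval of -0.30 to -0.03 (edgeR, adjusted p = 0.167), that of Slc16a1 was 0.16 with 0.045 to 0.28 (adjusted p = 0.117) and that of P4ha1 was -0.14 with -0.24 to -0.048 (adjusted p = 0.0914). These intervals leave out 0 before adjustment for the number of genes tested, and none of the genes passed after it with edgeR on the 8 libraries, so the peptides cannot be said to act alike on these genes. P4ha1 passed with DESeq2 (adjusted p = 0.0198), with all 12 libraries in one fit (0.0344) and without AngII+HNG replicate 3 (0.0302). Of the remaining genes with an unadjusted p below 0.05, the fitted difference was 0.23 for Ldhb (adjusted p = 0.106), 0.16 for Eno2 (adjusted p = 0.232), -0.17 for Adm (adjusted p = 0.157) and, for Pfkfb3, -0.14 (adjusted p = 0.213). Pfkm was at 56.97, 58.7, 64.5 and 61.8 CPM with HNG and 54.1, 56.7, 53.5 and 58.7 CPM with MOTS-c, a difference of 0.12 (adjusted p = 0.227). P4ha2 was at 134, 152, 143 and 148 CPM with HNG and 135, 137, 126 and 138 CPM with MOTS-c, a difference of 0.11 (adjusted p = 0.228). Together 11 of 35 genes (31.4%) had an unadjusted p below 0.05, against 19.3% of all genes. The groups did not overlap for 4 of 35 (11.4%), against 12.6%. Of the 35 genes 9 were fitted lower with HNG than with MOTS-c, against 49.4% of all genes. Of the 17 enzymes, 16 were fitted higher with HNG than with MOTS-c and 0 passed the adjusted threshold with edgeR, which gave 3 an unadjusted p below 0.05. DESeq2 called 1 of the 17, Ldhb (adjusted p = 0.0491), and limma 0. The median of the enzymes was 0.069 in this comparison, and 0.015 after the curve on gene length was subtracted.

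Ratios of paralogs compare the mRNA levels of isoenzymes, and they cancel what scales both genes alike within a library. Protein was not measured in these libraries, and some of these genes, among them Ldha and Eno1, have the named pseudogenes described above. The ratio of Ldhb to Ldha in FPKM was 0.245 on average with AngII (range 0.224 to 0.256), 0.276 with AngII+HNG (0.259 to 0.303) and 0.239 with AngII+MOTS-c (0.217 to 0.264). It did not overlap between AngII+HNG and AngII (two-sided exact permutation test, p = 0.0286, the smallest that 4 against 4 libraries allow, adjusted p = 0.309 over 18 tests). The ratio of Eno2 to Eno1 was 0.0359 with AngII, 0.0446 with AngII+HNG (exact permutation test, p = 0.0571, adjusted p = 0.309) and 0.0406 with AngII+MOTS-c (exact permutation test, p = 0.0857, adjusted p = 0.309). The ratio of Slc16a3 to Slc16a1 was 0.518 with AngII and 0.471 with AngII+HNG (exact permutation test, p = 0.0857, adjusted p = 0.309). None of the 18 ratio tests passed after adjustment, but at this group size a single ratio could not have passed, so these tests do not show that the ratios were alike. Hk2 was at 0.154 to 0.164 of Hk1, Aldoc at 0.0101 to 0.0119 of Aldoa, and Pfkp at 3.09 to 3.24 times Pfkl, as group means.

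The rest of the pathway was read from a list of 121 further genes, of which 119 were in the table and 113 were tested for HNG against AngII. With HNG 6 rose and 9 fell (13.3%, against 5.98% of all genes). Of the 54 other genes of glycolysis and pyruvate 3 rose (5.56%, near the 5.98% of all genes), namely Hk3, Gfpt2 and Txnip, and 0 fell. Hk3, a hexokinase known from white blood cells, was at 11.9, 10.8, 11.4 and 11.7 CPM with AngII, 13.7, 16.2, 17.2 and 18.7 CPM with AngII+HNG and 10.98, 9.95, 12.2 and 10.5 CPM with AngII+MOTS-c. The AngII+HNG libraries were the highest of the 12, by 0.53 ± 0.0903 on the log2 scale against AngII (edgeR, adjusted p = 0.00479), beside the higher macrophage markers given above, whose part was not tested. Gfpt2, which diverts fructose phosphate to hexosamines, was at 37.1, 38.6, 33.2 and 42.9 CPM with AngII and 45.8, 50.4, 51.1 and 55.4 CPM with AngII+HNG (0.42 ± 0.0766, edgeR, adjusted p = 0.00646). Txnip, which restrains glucose uptake and was named after its values were seen, had a log2 fold change of 0.24 ± 0.0477 (edgeR, adjusted p = 0.00922).

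Of 16 genes that regulate HIF, Cited2 and Epas1 fell with HNG, where 5.98% of all genes tested were called and 2.58% were called lower. Epas1, which encodes another HIF α subunit, was at 174, 161, 161 and 177 CPM with AngII, 148, 135, 137 and 149 CPM with AngII+HNG and 167, 169, 159 and 175 CPM with AngII+MOTS-c (-0.24 ± 0.0474 against AngII, edgeR, adjusted p = 0.0104). Cited2, a HIF-induced competitor for the coactivator of HIF, was at 146, 148, 136 and 131 CPM with AngII and 122, 117, 99.6 and 103 CPM with AngII+HNG (-0.34 ± 0.0638, adjusted p = 0.00746). Of 43 further genes known to be induced by hypoxia, 10 passed the threshold with HNG (23.3%), 3 higher and 7 lower, against 5.98% of all genes, 3.4% higher and 2.58% lower. A part of HIF was not tested, and the genes called on this list stood on both sides, as in the set of 35. Among them were Errfi1, an inhibitor of the EGF receptor (-0.45, adjusted p = 0.000348) and the clock repressor Bhlhe41 (0.43, adjusted p = 0.0145). Others were the vasoconstrictor gene Edn1 (-0.38, adjusted p = 0.0473), Lox, whose enzyme crosslinks collagen (-0.35, adjusted p = 0.000511), the transferrin receptor gene Tfrc (-0.32, adjusted p = 0.00102) and the VEGF receptor gene Flt1 (-0.31, adjusted p = 0.00298). Lox was at 803, 768, 769 and 775 CPM with AngII and 642, 609, 564 and 620.0 CPM with AngII+HNG, and Tfrc was at 121, 116, 129 and 118 CPM with AngII and 101, 96.5, 94.4 and 95.4 CPM with AngII+HNG. Both groups were fully separate. The call of Edn1 was lost with edgeR without AngII+HNG replicate 1, 2 or 4 (adjusted p = 0.0664 to 0.104) or AngII replicate 1, 2 or 3 (0.137 to 0.141). It was also lost with all 12 libraries in one fit (0.106), with the replicates 2 and 3 summed (0.111) and with limma (0.106 to 0.111). That of Bhlhe41 was lost without AngII replicate 1, 2 or 3 (0.0522 to 0.0649). The call of Epas1 was lost with limma at a pseudocount of 1 or 0.1 (adjusted p = 0.15 and 0.149).

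With MOTS-c, 0 of 111 of these genes tested with edgeR or limma, and 0 of 118 with DESeq2, had an adjusted p below 0.05 against AngII, and 6 had an unadjusted p below 0.05 with edgeR, 6 with DESeq2 and 5 to 7 with limma, against 5.05% of all genes with edgeR. Between the peptides 11 of 112 (9.82%, against 4.41%) differed, 4 of them higher with HNG and 7 lower. The cell type markers given above for this comparison moved beside them. Hk3, Gfpt2, Bhlhe41 and the heme oxygenase gene Hmox1 were higher with HNG, and Epas1, Tfrc, Lox, Flt1, Errfi1, Loxl2 and the collagen lysyl hydroxylase gene Plod2 were lower. Tfrc was at 130.5, 123, 132 and 124 CPM with AngII+MOTS-c, against the lower HNG values above (-0.39 ± 0.0413, edgeR, adjusted p = 0.000342). Plod2 was at 762, 742, 733 and 682 CPM with AngII+HNG and 854, 877, 858 and 798 CPM with AngII+MOTS-c (-0.21 ± 0.0451, adjusted p = 0.0169). It did not overlap between the peptides, and against AngII it did not pass for HNG (adjusted p = 0.0505) or MOTS-c (adjusted p = 0.924). Between the peptides the calls of Hk3, Tfrc, Lox, Errfi1, Hmox1 and Epas1 were kept with each library left out, but that of Epas1 was lost with limma at a pseudocount of 1 or 0.1 (adjusted p = 0.144 and 0.142). Those of Plod2 and Gfpt2 were lost without AngII+MOTS-c replicate 1 or 2 (edgeR, adjusted p = 0.0539 to 0.0645), and that of Plod2 without AngII+MOTS-c replicate 3 (0.0562). Those of Flt1, Bhlhe41 and Loxl2 were lost without AngII+HNG replicate 4 or AngII+MOTS-c replicate 2 (0.0532 to 0.129), and each also without other libraries, for Flt1 AngII+HNG replicate 2 (0.0573) and AngII+MOTS-c replicate 3 (0.0565), for Bhlhe41 AngII+MOTS-c replicates 1 (0.0697) and 3 (0.0624), and for Loxl2 all but AngII+MOTS-c replicate 3 (0.0573 to 0.129). The calls of Gfpt2, Plod2 and Flt1 were lost with the replicates 2 and 3 summed (0.0505 to 0.0618), and limma at a pseudocount of 1 called none of Bhlhe41 (0.0501), Flt1 (0.0587) and Loxl2 (0.0998).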

How the data were processed

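Counts and FPKM values of 12 libraries were used. Per the labels and the methods, mRNA libraries were prepared from TRIzol extracts and sequenced paired-end on a DNBSEQ platform. The authors deposited unnormalized whole-number counts for each gene, and FPKM values, which scale the counts to the length of the gene and the size of the library. The submitters' processing notes name HISAT2, Picard 1.41 and SAMtools 0.1.18, without roles. The counting tool, genome build, annotation, use of strand and treatment of reads with several matches are not given in the sources used here. Of the 22850 features, 320 are assembled transcripts, with 0.188% to 0.196% of the counts.

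Groups and replicate numbers were taken from the titles. Counts were tested in R 4.3.3 with edgeR 4.0.16 (filterByExpr, TMM, glmQLFit and glmQLFTest) on the 8 libraries of each comparison, with Benjamini-Hochberg adjustment over all genes tested and a threshold of 0.05. Standard errors were derived from the F statistic, and log2 CPM used a prior count of 2. CPM in the text are TMM-scaled counts without the prior. Gene length was taken as counts over FPKM, and its curve was a loess fit of span 0.5. Ratios of paralogs were compared with exact permutation tests. Alternatives were DESeq2 1.42.0, limma 3.58.1 on log2 of FPKM plus 1 or plus 0.1, no filter, a minimum of 10 counts, other scalings, all 12 libraries in one fit, a replicate block, a block on the number in the library name, the replicates 2 and 3 summed, and each library left out. The code was tested on simulated counts.

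The 35 genes and the lists were chosen with earlier results of these data known, so they are described by counts and medians with no test of a list. For genes of the 35 with an unadjusted p below 0.05 against AngII, values in every library of both groups compared are given. Between the peptides, the AngII+MOTS-c values of Ldhb, Eno2, Adm and Pfkfb3 are not printed. Of the other pathway genes, those called are named, at most the 10 with the largest change per comparison, and Txnip and Loxl2 were named after their values were seen. One called gene of this list is not reported here. RefSeq tables (GRCr8) gave promoters and pseudogene names only. As a check of pairing, libraries with the same number were compared in how they deviated from their group means, and correlated at -0.0755 to 0.136 for HNG, 2.56e-05 to 0.119 for MOTS-c, and -0.0140 to 0.212 between the peptides. Not every pair exceeded 0.1, so the numbers were not taken to pair the samples.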

Additional observations from a re-analysis of the deposited data

Results flagged for a closer look

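In 8 of 153 sets of 4 libraries (5.23%), formed by 51 genes in 3 groups, the highest or lowest library stood far from the other 3 by Dixon's ratio, and chance alone gives about 1 in 20. Pfkl was at 46.6 CPM in AngII replicate 1, with the others at 48.7 to 48.9 CPM. Pfkp was at 165 CPM in AngII replicate 4 (others 156 to 157) and at 155 CPM in AngII+HNG replicate 1 (others 162 to 163). Tpi1 was at 201 CPM in AngII+HNG replicate 3 (others 155 to 160.4), the library with the highest value of its group in 11 of 17 enzymes. Pkm was at 711 CPM in AngII+MOTS-c replicate 4 (others 738 to 744). AngII replicate 4 was high for Pfkfb3 with 53.4 CPM (others 45.1 to 45.9) and for Pdk4 with 1.84 CPM (others 1.58 to 1.60). Edn1 was at 32.2 CPM in AngII+HNG replicate 4 (others 41.4 to 43.2).

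The log2 fold change against AngII differed between the peptides for 13 genes, by edgeR's direct test of AngII+HNG against AngII+MOTS-c at an adjusted p below 0.05. Of the 35 genes 2 differed (5.71%), and of the 112 other pathway genes tested 9.82% did, against 4.41% of all 14448 genes tested. The difference, HNG minus MOTS-c, was 0.35 for Egln3 and 0.40 for Ndrg1 among the 35 genes. Among the other pathway genes it was 0.59 for Hk3, 0.44 for Bhlhe41, 0.41 for Gfpt2 and 0.32 for Hmox1. It was -0.42 for Errfi1, -0.39 for Tfrc, -0.29 for Lox, -0.25 for Flt1, -0.23 for Epas1, -0.21 for Plod2 and -0.19 for Loxl2. The calls of Loxl2, Ndrg1, Flt1 and Bhlhe41 were lost in 12, 9, 7 and 5 of 20 alternatives. Those of Plod2, Gfpt2, Egln3 and Epas1 were lost in 4, 3, 2 and 2 of 20, and those of Hk3, Hmox1, Errfi1, Tfrc and Lox in none.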

How the results depend on the processing

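For HNG against AngII, 5 of the 35 genes were called, and 3 with no filter, 2 with the replicates 2 and 3 summed, 3 with limma on log2(FPKM + 1), and 2 to 5 with 1 library left out. Slc2a1 and Ndrg1 kept their calls in every alternative run. Eno2 was called without AngII+HNG replicate 1 (adjusted p = 0.0374). Slc16a1 was lost with RLE size factors (adjusted p = 0.0506), no filter (0.0566) and all 12 libraries (0.0649), and P4ha1 with upper-quartile factors (0.051), no filter (0.0513) and limma at either pseudocount (0.132 and 0.136). All genes called numbered 869, and 577 with the replicates summed and 431 to 932 with 1 library left out. The median of the 35 genes was 0.028, and -0.0033 to 0.036 with 1 library left out.

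For MOTS-c against AngII, 1 gene was called of all, and 4 with DESeq2, 0 with all 12 libraries in one fit, 0 with the replicates summed and 0 to 3 with 1 library left out. The 7 genes at an unadjusted p below 0.05, a count added after seeing the data, were 4 with all 12 libraries and 4 to 7 with 1 library left out.

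Between the peptides 637 genes were called of all, and 1034 with DESeq2, 975 with all 12 libraries and 322 to 625 with 1 library left out. The 2 called of the 35 were 4 with DESeq2, 1 with the replicates summed, 1 with limma at either pseudocount (1 or 0.1) and 0 to 2 with 1 library left out. The 11 at an unadjusted p below 0.05 were 7 to 15. The median of 0.048 was 0.014 with the length curve subtracted.

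The replicate numbers were not taken to pair the samples, and whether they do is not known. With them as a replicate block, 2 genes were called of all for MOTS-c and 1054 between the peptides, and Slc16a1 was not called for HNG against AngII (0.0537), while P4ha1 was called between the peptides (0.0466). With a block on library name numbers, Loxl2 was not called between the peptides (0.118), and it was also lost there with upper-quartile factors (0.0555) and no filter (0.0529). The cause of these changes was not tested. No result changed its direction in a called value. Pdk4, with 42 counts in its lowest library, is the member whose precision depth limits most.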
